A study of Mus musculus with 43 samples.

Results

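Intergenic piRNA precursor loci are regions between genes that give rise to piRNAs. In these count tables they are the rows named by cytoband, that is by chromosome, band and a number, such as 9-qC-31469.1, whereas piRNA loci that lie in genes are named after the gene. All rows with a cytoband name were taken and none was left out. There were 203 such rows among 4890 in the epididymis table, 203 among 3178 in the epididymal fluid table and 216 among 4323 in the sperm table. The last digit of a name marks an isoform of a locus. The rows stood for 100 loci on 18 chromosomes, with the highest numbers on chromosomes 10 and 7 (11 and 10 loci), and 92 loci were listed in all 3 tables. Of the 100 loci in the sperm table, 70 had more than 1 isoform and 6-qC3-100 had 7. Isoforms of a locus share reads and a read was counted on each row that it matched, so rows are not independent, and counts of loci below take the isoform with the most counts.

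The libraries came from WT mice and from Rnase9-12 KO mice, both of the FVB strain and 8 to 12 weeks old. In the KO line, CRISPR/Cas9 removed the cluster of Rnase9, Rnase10, Rnase11 and Rnase12 on chromosome 14. Caput, corpus and cauda epididymis tissue (3 WT and 3 KO libraries each, but 2 KO libraries for the corpus) was sequenced with ARM-seq, and fluid of the 3 segments (3 WT and 3 KO libraries each) and cauda sperm (4 WT and 4 KO libraries) with OTTR-seq, a method based on a template-jumping reverse transcriptase. All RNA was first treated with PNK, a kinase that also removes 3′ phosphates. RNA of 3 mice went into each fluid or sperm library, and the sources do not give how tissue was pooled. Fluid had been cleared of sperm and extracellular vesicles by centrifugation. The deleted genes themselves were not analysed here. In 1 WT caput tissue library and in the caput fluid libraries, one label names the cauda where the title names the caput, and the titles were followed.

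piRNAs are small RNAs that bind PIWI proteins and silence transposons in the germline. In the testis, long transcripts of piRNA loci are cut into many piRNAs, and a large share of the piRNAs of adult mouse testes comes from intergenic loci that are switched on in pachytene spermatocytes. The epididymis is a somatic tissue in which sperm mature as they move from caput to corpus to cauda.

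The counts of 1-qE2.3-2.1 were nearly those of the snRNA gene Gm22710 in all 3 tables: 12474 and 12476 in tissue with equal counts in 15 of 17 libraries, 5298 and 5304 in fluid with equal counts in 16 of 18, and 5336 and 5352 in sperm with equal counts in 4 of 8. Gm22710 is annotated at chr1:118459141-118459265 (GRCm38, GENCODE M21, minus strand), inside the exon of the antisense RNA 2900060B14Rik and within the span of Clasp1 on the other strand. Its transcript of 125 bases is shown, from the GENCODE transcripts, because this locus held 35.0% of the counts of all intergenic loci in tissue (1 row per locus), 17.2% in fluid and 3.76% in sperm. Whether the locus overlaps this gene was not checked, since its coordinates were not at hand.

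Gm22710: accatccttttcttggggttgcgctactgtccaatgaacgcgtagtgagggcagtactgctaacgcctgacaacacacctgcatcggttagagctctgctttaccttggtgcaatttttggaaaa

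Sums over the loci are therefore given with and without 1-qE2.3-2. No sequence of a piRNA locus was at hand, and none is shown.

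The loci were a small part of every library. Libraries of tissue held 30142156 to 249732714 counts, those of fluid 1948718 to 12320922 and those of sperm 1134840 to 62128314. As a share of all counts of a library, in ppm, the rows of the loci summed to 19.4 to 55.3 in tissue, 142 to 3220 in fluid and 908 to 2512 in sperm. A single locus was therefore thinly counted in tissue, where all loci together (1 row per locus) had 570 to 5638 counts in a library. After the filter on low counts, 129 of 203 rows (68 of 95 loci) were tested in tissue, 150 of 203 (76 of 96 loci) in fluid and 204 of 216 (97 of 100 loci) in sperm. Tissue, fluid and sperm were counted and scaled apart, so values are set side by side between them and not tested.

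In the corpus fluid, the loci were far higher in KO than in WT. The summed level was 1593, 468 and 3220 ppm in the 3 KO libraries and 173, 142 and 256 in the 3 WT libraries. Every KO library lay above every WT library, and the KO libraries differed among themselves by more than the WT libraries did. The means were 1760 and 190 ppm, a ratio of 9.25, and 9.82 with 1 row per locus and without 1-qE2.3-2. As a percentage of the counts outside tRNA and rRNA rows, the loci made up 1.67%, 0.415% and 3.62% in KO and 0.348%, 0.183% and 0.281% in WT. In the caput fluid the same sum was 180, 253 and 215 ppm in WT and 283, 258 and 180 in KO, and in the cauda fluid it was 212, 493 and 284 in WT and 1045, 163 and 356 in KO. WT and KO libraries overlapped in the caput and in the cauda fluid. In bulk samples, a change in the number of source cells and a change in RNA per cell cannot be told apart.

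**Figure D1:**
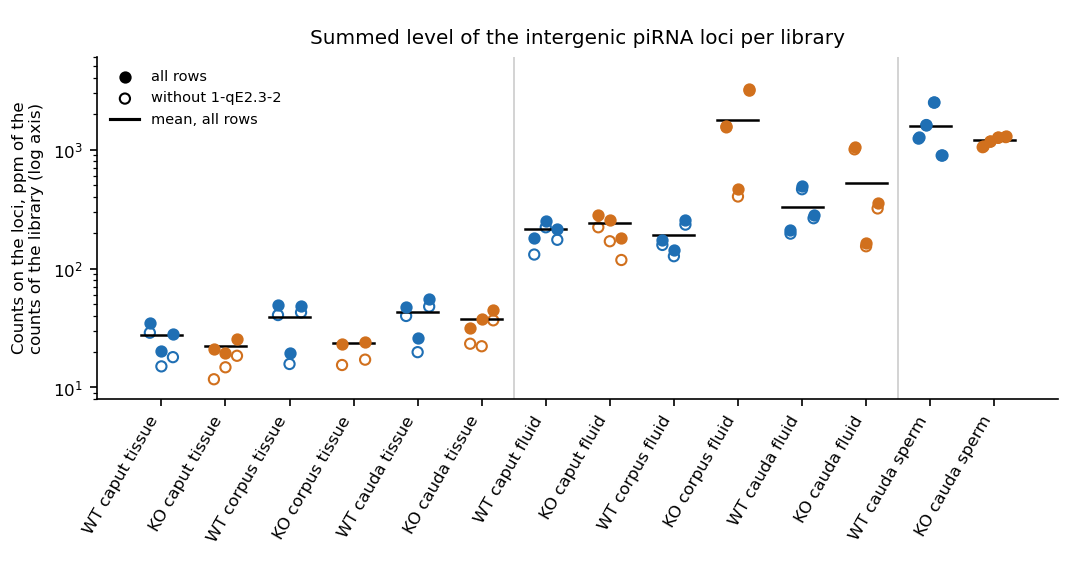
Counts on the intergenic piRNA loci in ppm of the counts of a library (log axis) for each of the 43 libraries, in WT (blue) and KO (orange); filled points are all rows, open points leave out 1-qE2.3-2, and bars are means of all rows. The 3 KO corpus fluid libraries (468 to 3220) lie above the 3 WT corpus fluid libraries (142 to 256), and 2 of them lie in the range of sperm (908 to 2512) or above it.

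Of the 150 rows tested in fluid, 121 were called higher in KO corpus fluid (edgeR's quasi-likelihood test, adjusted p under 0.05 and a log2 fold change above 1) and 0 lower. That is 80.7% of the rows, whereas 19.7% of all 2023 RNAs tested were called in either direction and 13.5% were called higher. By locus, 62 of 76 were higher. Some of the rows tested passed the filter on low counts only or partly through the KO corpus fluid libraries, where they were high. 18-qE1-1295.1, for example, had 18, 8 and 8 counts there and at most 9 in any other, deeper fluid library. The shares called in comparisons with KO corpus fluid are thus partly set by this filter, and how far was not tested. The median log2 fold change was 3.25 over the rows and 0.10 over all RNAs. In 105 rows every KO library was above every WT library, as in 20.4% of all RNAs. Of 202 rows of genic piRNA loci, 7 were called higher and 1 lower, with a median log2 fold change of 0.44, and their summed level was 1443, 1875 and 2059 ppm in KO and 973, 1247 and 1355 in WT.

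The 10 loci with the smallest p-values were 15-qD3-14639.3, 18-qE1-36451.1, 2-qG3-1029.1, 12-qE-23911.2, 17-qA3.3-27363.1, 9-qC-31469.1, 7-qD2-11976.3, 7-qD2-24830.3, 9-qA5.3-24188.1 and 9-qC-10667.1, with log2 fold changes from 3.4 to 5.23. In CPM, which is the level relative to the TMM-scaled library size, 15-qD3-14639.3 was at 16.4, 3.78 and 26.5 in KO and at 0.448, 0.659 and 1.01 in WT corpus fluid (log2 fold change 4.46, SE 0.67, edgeR adjusted p = 0.00138). 18-qE1-36451.1 was at 38.1, 5.94 and 68.8 in KO and at 2.09, 1.13 and 1.61 in WT (log2 fold change 4.54, SE 0.75, edgeR adjusted p = 0.00167). In both loci, KO replicate 2 was the lowest of the KO libraries and still above each WT library. 7-qD2-11976.3 had the largest fold change of the 10 and rested on few reads in WT. Its counts were 29, 5 and 46 in KO and 3, 3 and 0 in WT (log2 fold change 5.23, SE 0.99, edgeR adjusted p = 0.00235). 17-qA3.3-352.1, named after its values were seen, had no count in the WT corpus fluid and a mean of 1.75 CPM in KO, which is at least 13.0-fold higher than a floor of 3 counts over the WT group. Its counts in KO corpus fluid were 7, 6 and 2, and it passed the filter partly through these libraries. The row 1-qE2.3-2.1, whose counts are nearly those of Gm22710, was also called, at 56.5, 59.2 and 74.6 CPM in KO and 15.1, 14.9 and 17.5 in WT (log2 fold change 2.0, SE 0.45, edgeR adjusted p = 0.00339). KO replicate 2 was not its lowest KO library, and the groups did not overlap.

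**Figure D2:**
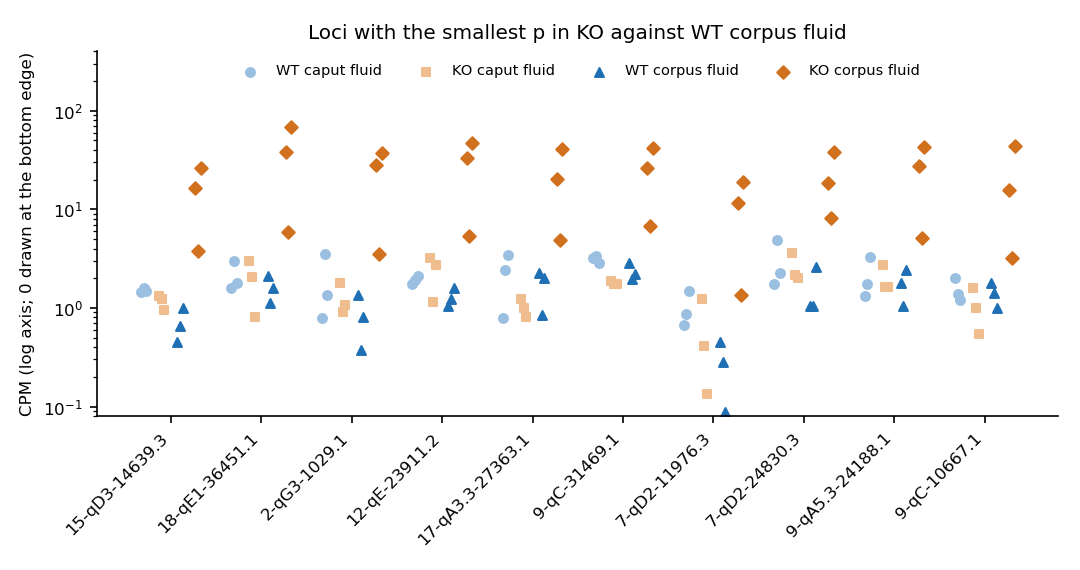
CPM (log axis, 0 drawn at the bottom edge) of the 10 loci with the smallest p in KO against WT corpus fluid, in each library of caput and corpus fluid. The KO corpus fluid libraries (diamonds) lie above the WT corpus fluid libraries (triangles) at each of the 10 loci, and the lowest diamond at each is KO replicate 2.

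How many rows were called depended on single libraries. It was 75 without KO corpus fluid replicate 3, 80 without KO replicate 1, 123 without KO replicate 2 and 58 without WT corpus fluid replicate 2. With KO replicate 2 as the only KO library, a fit chosen after seeing the data in which this library is assumed to vary like the other groups, 0 rows were called and the median log2 fold change was 1.09. The KO corpus fluid libraries were also the shallowest of the fluid, with 2474993, 3373869 and 1948718 counts against 3989262 to 10172577 in WT corpus fluid.

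Markers of other cells were also higher in some of these libraries. A miRNA given as not detected had no row or no count. The germ cell and sperm miRNA list (12 miRNAs, 10 detected in fluid, Mir449b and Mir449c not detected) summed to 20.6, 28.2 and 25.7 ppm in KO corpus fluid and 14.2, 6.39 and 21.3 in WT corpus fluid, against 2.71 to 6.32 in caput fluid and 15.7 to 56.6 in cauda fluid. KO replicate 2, with the lowest level of the piRNA loci, had the highest level of this list. The epithelial list (7 of 7 miRNAs detected) summed to 132, 157 and 247 in KO and 78.2, 39.6 and 95.3 in WT corpus fluid. The blood list (7 of 7 detected) summed to 39.2, 77.4 and 251 in KO and 33.5, 73.7 and 72.9 in WT, and the smooth muscle list (6 of 7 detected, Mir145b not detected) to 173, 151 and 385 in KO and 173, 103 and 182 in WT. The part of these cells, of depth and of the high libraries in the result was not tested.

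The KO effect in the corpus fluid was compared with the KO effect in the other segments, in comparisons added after seeing the data. It exceeded the KO effect in the caput fluid for 34 of 150 rows (17 of 76 loci), whereas 1.83% of all RNAs were called in this comparison, and 0 rows went the other way. For 17-qA3.3-27363.1 the log2 difference was 4.82 (SE 0.95) and for 15-qD3-14639.3 it was 4.81 (SE 0.91), each with an edgeR adjusted p of 0.0155. The KO effect in the corpus fluid exceeded that in the cauda fluid for 40 rows (21 loci), with 7.37% of all RNAs called. For 18-qE1-36451.1 this log2 difference was 4.26 (SE 0.96, edgeR adjusted p = 0.0196). Both counts fell to 0 with library size only as the scaling. The first count was 8 without WT caput fluid replicate 1, 19 without WT corpus fluid replicate 1, 55 without KO corpus fluid replicate 2 and 0 without any other library of these groups. The second was 0 without WT corpus fluid replicate 1 or 2, KO corpus fluid replicate 1, WT cauda fluid replicate 3 or KO cauda fluid replicate 2. It was 6 without WT cauda fluid replicate 2, 8 without KO corpus fluid replicate 3, 13 without WT corpus fluid replicate 3 and 18 without KO cauda fluid replicate 3.

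The share of loci called in the corpus fluid differed with the number that ends their name. What this number stands for is not given in the sources used here, and the classes below were set after the values were seen, so they are a description without a test. 1-qE2.3-2 is left out of them. Of 21 loci with a number of 10000 or more, 21 were called higher in KO corpus fluid, with a median log2 fold change of 3.73. Of 40 loci from 1000 to below 10000, 34 were called, with a median of 3.20. Of 14 loci below 1000, 6 were called, with a median of 2.07. The lowest of all were 10-qC1-117.1 at -0.29 (SE 1.01), 2-qE5-4.1 at -0.28 (SE 0.89), 7-qD2-40.1 at 0.20 (SE 0.58) and 1-qC1.3-637.1 at 0.36 (SE 0.79), all with overlapping libraries. 7-qD2-40.1, for example, was at 0.802, 5.13 and 3.31 CPM in KO and 3.58, 3.67 and 0.805 in WT corpus fluid. Across the 75 loci, Spearman's rho of the number in the name with the mean CPM was 0.79 in KO corpus fluid, 0.77 in WT cauda fluid and KO cauda fluid, 0.49 in WT corpus fluid, 0.54 in WT caput fluid and 0.45 in KO caput fluid. In sperm it was 0.53 in WT and 0.66 in KO over 96 loci, and in tissue it was 0.15 to 0.47 over 67 loci. The loci of a library share its depth, and low counts add noise to ranks.

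**Figure D3:**
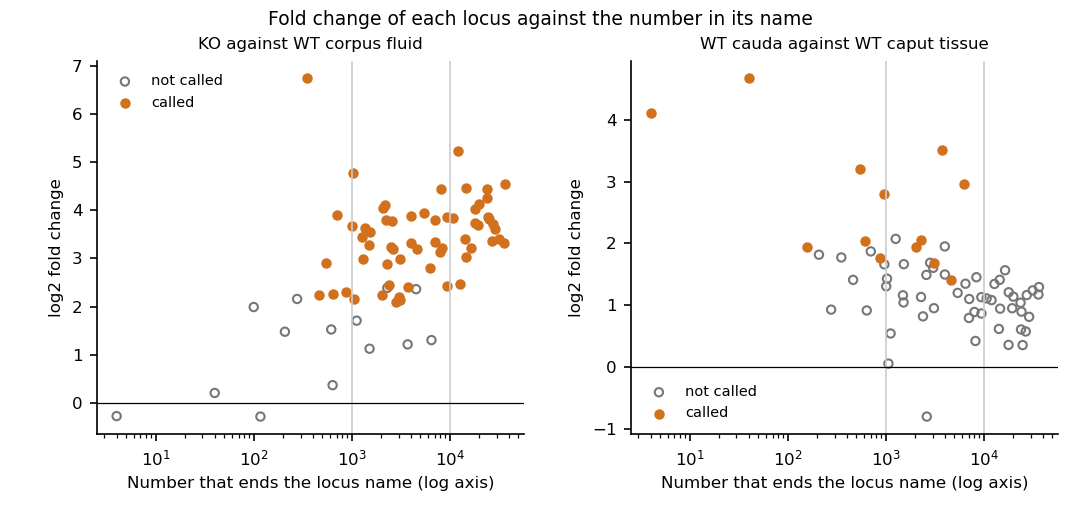
Log2 fold change of each locus (1 row per locus, without 1-qE2.3-2) against the number that ends its name (log axis), with called loci filled and lines at 1000 and 10000. In KO against WT corpus fluid (left) all 21 loci from 10000 upward are called, and in WT cauda against WT caput tissue (right) 0 of 21 are, while 7 of 14 loci below 1000 are.

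Outside the corpus, KO and WT fluid were not told apart at any locus. In the caput fluid 0 of 150 rows were called in edgeR (0 in DESeq2), 2 had an unadjusted p under 0.05 (10.6% of all RNAs), and the median log2 fold change was -0.28, with 0% of all RNAs called. The smallest p was that of 11-qE1-9443.1, at 0.471, 0.247 and 0.406 CPM in KO and 0.798, 0.700 and 1.65 in WT (log2 fold change -1.47, SE 0.65, edgeR adjusted p = 0.399). In the cauda fluid 0 rows were called in edgeR (0 in DESeq2), 2 had an unadjusted p under 0.05 (9.29% of all RNAs), and the median was 0.36, again with 0% of all RNAs called. The smallest p there was that of 6-qC3-2394.2, at 2.46, 0.774 and 0.999 CPM in KO and 0.460, 0.352 and 0.680 in WT (log2 fold change 1.58, SE 0.69, edgeR adjusted p = 0.492). The libraries did not overlap at either locus, although neither passed the test. The change of the KO effect from caput to cauda fluid was called for 0 rows in edgeR, with 2 at an unadjusted p under 0.05 (10.9% of all RNAs) and 0 called by DESeq2. 0% of all RNAs were called.

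Along the fluid of WT mice, few loci differed between segments. Cauda against caput fluid had 3 rows of 2 loci called higher of 150, with 25.1% of all RNAs called and a median log2 fold change of 0.80 (-0.17 over all RNAs). 18-qE1-36451.1 was at 6.16, 9.16 and 11.7 CPM in cauda and 1.60, 2.97 and 1.80 in caput fluid (log2 fold change 2.08, SE 0.69, edgeR adjusted p = 0.0304). 4-qD3-2082.1 was at 0.368, 1.14 and 1.02 CPM in cauda, and in caput fluid it was at 0.133 in replicate 1, from 1 count, and at 0 in the others (log2 fold change 3.69, SE 1.30, edgeR adjusted p = 0.0411). At both loci the groups did not overlap. Genic piRNA rows went the other way, with 48 of 202 called lower and 0 higher. Without WT caput fluid replicate 1 or 2, or WT cauda fluid replicate 2 or 3, 0 rows were called, and 1 was without WT caput fluid replicate 3. Corpus against caput fluid had a single call, of 17.7% among all RNAs. This was 1-qE2.3-2.1, at 15.1, 14.9 and 17.5 CPM in corpus and 53.1, 32.7 and 49.7 in caput fluid (log2 fold change -1.51, SE 0.44, edgeR adjusted p = 0.0209), and it was lost without any of the WT libraries of these segments.

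In KO mice, cauda fluid was above caput fluid for 39 of 150 rows (22 loci) and below it for 1. That is 26.7% of the rows, with 26% of all RNAs called in either direction. Of 2023 RNAs, 232 were called higher and 293 lower, so higher calls were a larger part of these rows than of all RNAs. The row that was lower was again 1-qE2.3-2.1 (log2 fold change -1.38, SE 0.44, edgeR adjusted p = 0.0252). The locus with the smallest p was 17-qA3.3-27363.1, at 10.6, 3.10 and 6.66 CPM in cauda and 1.22, 0.988 and 0.812 in caput fluid (log2 fold change 2.73, SE 0.66, edgeR adjusted p = 0.00558). 18-qE1-36451.1 (2.45), 9-qC-31469.1 (2.40), 14-qA3-19970.2 (2.39), 11-qE1-9443.1 (2.23), 15-qD3-14639.3 (1.95) and 15-qE1-8387.2 (1.85) were also higher on the log2 scale without overlap of the libraries, as was 6-qC3-6258.3 (2.18). 6-qF3-28913.1 and 9-qC-10667.1 were called with overlapping libraries. The count was 1 without KO cauda fluid replicate 1, the library with the highest level of the loci in this group, and 76 without replicate 2, the lowest. It was 2 and 4 without KO caput fluid replicate 2 and 3, 14 without replicate 1 and 26 without KO cauda fluid replicate 3. KO corpus against KO caput fluid, an added comparison that shares the KO caput libraries, had 118 rows called higher, with 19.4% of all RNAs called, 66 without KO corpus fluid replicate 3 and 78 without KO caput fluid replicate 2.

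**Figure D4:**
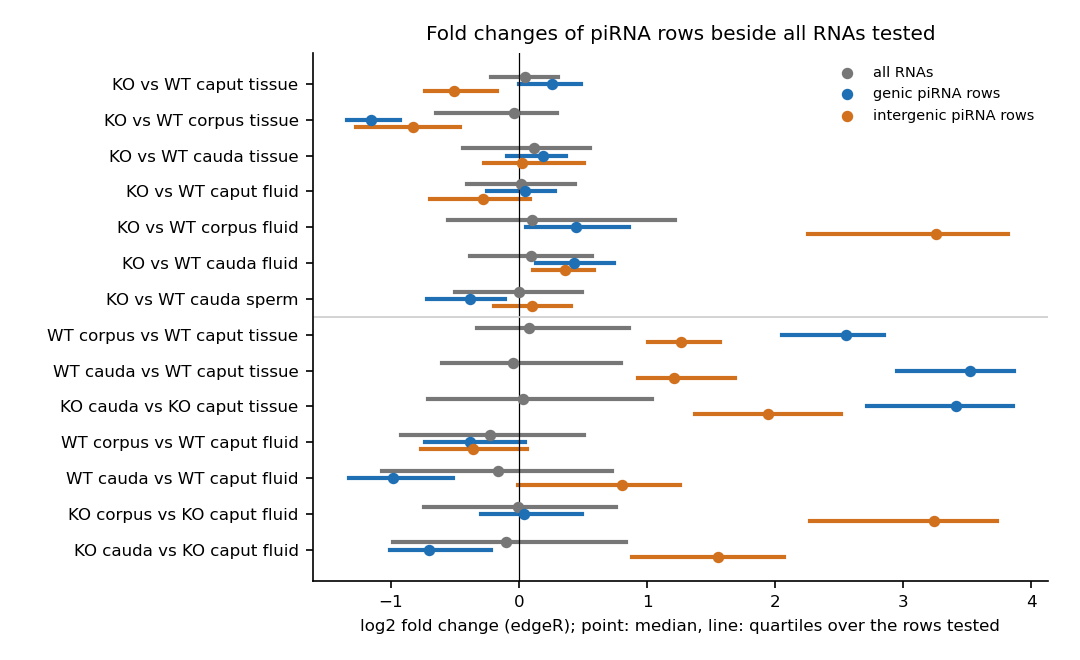
Median (point) and quartiles (line) of the log2 fold change over the rows tested, for all RNAs (grey), genic piRNA rows (blue) and intergenic piRNA rows (orange) in 14 comparisons. In KO against WT corpus fluid the intergenic rows are centred at 3.25 and the genic rows at 0.44, and in WT cauda against WT caput tissue they are centred at 1.21 and 3.52.

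In the epididymis tissue, part of the loci were higher in cauda than in caput after TMM scaling. In WT, 26 of 129 rows (13 of 68 loci) were called higher in cauda than in caput and 0 lower, which is 20.2% of the rows, with 23% of all RNAs called in either direction and 15.7% called higher. The median log2 fold change was 1.21, against -0.05 over all RNAs. In ppm, which takes no TMM scaling, the summed level was 35.1, 20.1 and 28.2 in WT caput and 47.3, 26.2 and 55.3 in WT cauda. These groups overlapped, also without 1-qE2.3-2. The TMM factors were 1.29, 1.46 and 1.44 in WT caput and 0.943, 0.647 and 1.45 in WT cauda, so the size of the rise depends on the scaling. Genic piRNA rows moved further, with 221 of 232 called higher and a median of 3.52. Tissue libraries of a genotype with the same replicate number deviated together, and with the replicate block 66 rows were called. Replicate 3 was the deepest library of each WT segment and of KO caput and cauda tissue, and the part of depth in this was not tested. Without the block and without WT caput tissue replicate 1, 43 rows were called.

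In WT tissue, 7-qD2-40.1 and 2-qE5-4.1 had the largest log2 fold changes of the 10 loci with the smallest p. 7-qD2-40.1 was at 0.103, 0.195 and 0.117 CPM in WT caput, 2.85, 0.789 and 1.41 in corpus and 4.38, 3.78 and 2.3 in cauda (cauda against caput, log2 fold change 4.67, SE 0.56, edgeR adjusted p = 2.27e-05). 2-qE5-4.1 was at 0.140, 0.158 and 0.114 CPM in caput, 2.31, 0.882 and 1.04 in corpus and 3.12, 2.33 and 1.67 in cauda (log2 fold change 4.12, SE 0.51, edgeR adjusted p = 2.89e-05). Both loci had the caput libraries below all corpus and cauda libraries. 15-qE1-3710.1 (3.51), 10-qC2-545.1 (3.20), 6-qC3-6258.3 (2.95), 5-qG2-950.1 (2.80), 3-qA2-617.1 (2.04), 3-qA3-2052.1 (1.95), 13-qA5-156.1 (1.95) and 7-qF3-3125.5 (1.68 on the log2 scale) completed the 10 with the smallest p, and at each the cauda libraries were above the caput libraries. By the number in the name, 7 of 14 loci below 1000, 6 of 32 from 1000 to below 10000 and 0 of 21 from 10000 upward were called. The loci 7-qD2-40.1 and 2-qE5-4.1 tracked genic piRNA rows over the 17 tissue libraries, 7-qD2-40.1 with pi-Wdfy3.2, pi-Tef.1 and pi-Ankrd11.1 (Pearson's r of log2 CPM 0.99 each) and 2-qE5-4.1 with pi-Mllt6.1, pi-Tef.3 and pi-Klf13.1 (0.98 each). These libraries share segments, and the genic rows were named after their values were seen, as the most alike.

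**Figure D5:**
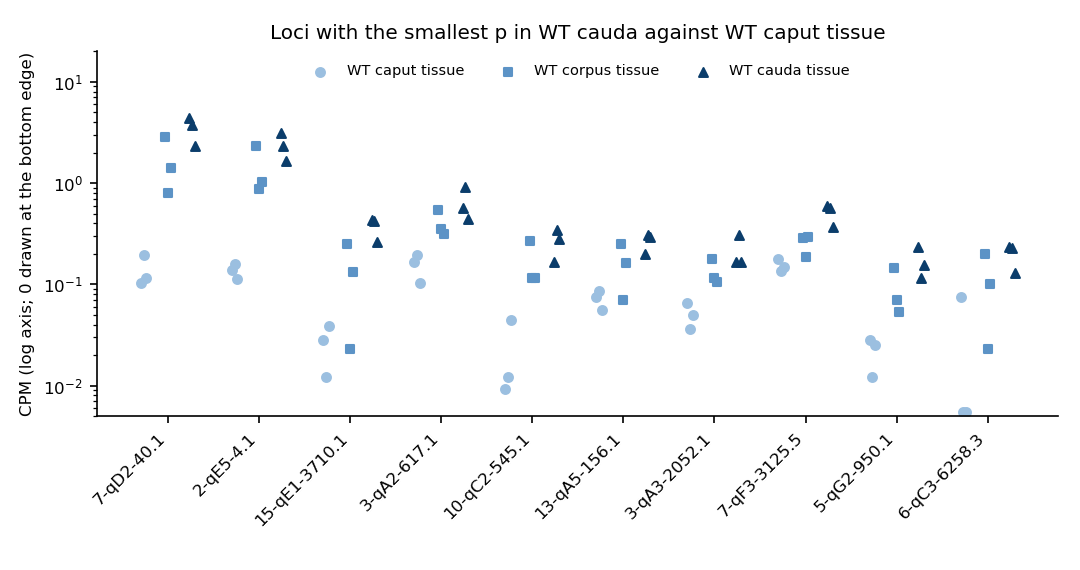
CPM (log axis, 0 drawn at the bottom edge) of the 10 loci with the smallest p in WT cauda against WT caput tissue, in each WT tissue library. All cauda libraries (triangles) lie above all caput libraries (circles) at each of the 10 loci, and 7-qD2-40.1 and 2-qE5-4.1 rise from below 0.2 CPM in caput to above 1.6 in cauda.

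In WT corpus against WT caput tissue, 10 rows of 7 loci were called higher and 0 lower, 7.75% of the rows, with 11.8% of all RNAs called and a median log2 fold change of 1.27. In ppm the summed level was 49.1, 19.4 and 48.2 in WT corpus tissue, which overlapped WT caput. 7-qD2-40.1 (3.63) and 2-qE5-4.1 (3.37) led again, followed by 3-qA2-617.1, 10-qC2-545.1, 15-qE1-3710.1, 4-qB3-277.1 and 17-qA3.3-27363.1. The replicate block gave 59 rows. It was 34 without WT corpus tissue replicate 2, 2 without replicate 1, 4 and 3 without WT caput tissue replicate 2 and 3. In KO cauda against KO caput tissue, 63 rows (33 loci) were called higher and 0 lower, 48.8% of the rows, with 25.7% of all RNAs called and a median of 1.95. Of all 3488 RNAs tested there, 598 were called higher and 300 lower. Of the 13 loci called in WT, 12 were among the 33 called in KO. 15-qE1-3710.1 was at 1.25, 0.660 and 0.438 CPM in KO cauda and 0.0347, 0.0324 and 0.0159 in KO caput (log2 fold change 4.82, SE 0.64, edgeR adjusted p = 4.92e-05), without overlap of the groups. The count was 33 and 30 without KO caput tissue replicate 1 and 3 and 32 without KO cauda tissue replicate 2. The change of the KO effect from caput to cauda tissue was called for 0 rows in edgeR, with 3 at an unadjusted p under 0.05 (6.05% of all RNAs) and 0 called by DESeq2. Genic piRNA rows summed to 80 to 98.5 ppm in WT caput and 405 to 665 in WT cauda tissue, the smooth muscle list (6 of 7 miRNAs detected, Mir145b not detected) to 31.1 to 54.4 and 72.4 to 238, and the epithelial list (7 of 7) to 12.2 to 31.6 and 6.0 to 20.2. In KO the smooth muscle list was at 26.3 to 61.7 ppm in caput and 64.4 to 116 in cauda tissue, and the epithelial list at 13.3 to 36.2 and 4.41 to 8.48, both without overlap. The germ cell list (6 of 12 detected) ran from 0.0247 to 0.687 ppm over all tissue libraries, with Mir449a, Mir449b, Mir449c, Mir871, Mir880 and Mir471 not detected. Caput and cauda overlapped in this list in both genotypes. The blood list (5 of 7, Mir144 and Mir155 not detected) ran from 0.0659 to 0.586. In WT it was at 0.107 to 0.160 in caput and 0.198 to 0.586 in cauda, without overlap. In KO it was at 0.0925 to 0.205 and 0.0664 to 0.341, with overlap. Their part in the difference between segments was not tested.

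Between KO and WT tissue no row passed the test without the block. In the caput 0 of 129 rows were called in edgeR and in DESeq2, 2 had an unadjusted p under 0.05 (0.975% of all RNAs) and the median log2 fold change was -0.51. 9-qA5.3-1495.2 had the smallest p there (log2 fold change -1.51, SE 0.70, edgeR adjusted p = 1.0). In the corpus, where KO had 2 libraries, 0 were called in either tool, 11 had an unadjusted p under 0.05 (8% of all RNAs), each lower, and the median was -0.82. In both comparisons 0% of all RNAs were called. 9-qC-10667.1 was at 0.0862 and 0.0664 CPM in KO and 0.323, 0.163 and 0.252 in WT corpus tissue (log2 fold change -1.70, SE 0.50, edgeR adjusted p = 0.418), and 2-qE5-4.1 was at 0.445 and 0.387 in KO and 2.31, 0.882 and 1.04 in WT (-1.76, SE 0.53, edgeR adjusted p = 0.418). At both, the KO libraries lay below the WT libraries without passing the test. Genic rows in the corpus had a median of -1.15, with 0 called. Of the 4 marker lists, 3 were also lower in KO corpus tissue. The epithelial list was at 8.67 and 10.6 ppm in KO and 14.3 to 31.0 in WT, the smooth muscle list at 19.6 and 29.0 in KO and 38.2 to 87.2 in WT, and the blood list at 0.0659 and 0.0739 in KO and 0.192 to 0.271 in WT, without overlap. The germ cell list was at 0.231 and 0.243 in KO and 0.133 to 0.456 in WT, with overlap. Their part in the lower level of the loci was not tested. In the cauda 0 rows were called in edgeR and in DESeq2, 5 had an unadjusted p under 0.05 (15.1% of all RNAs) and the median was 0.02, with 0.86% of all RNAs called. The smallest p there was that of 3-qA2-617.1 among the most counted isoforms, at 1.25, 1.28 and 1.04 CPM in KO and 0.564, 0.916 and 0.439 in WT (log2 fold change 0.94, SE 0.36, edgeR adjusted p = 0.201), with the KO libraries above the WT libraries. KO and WT cauda tissue libraries with the same number deviated together as well, and with the block 15-qE1-3710.3 alone was called higher (log2 fold change 1.44, edgeR adjusted p = 0.0438).

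In sperm, KO and WT were not told apart at any locus in edgeR. The summed level was 1264, 1618, 2512 and 908 ppm in WT and 1064, 1190, 1284 and 1296 in KO, with the KO values inside the range of WT. Of 204 rows, 0 were called in edgeR and 9 had an unadjusted p under 0.05 (17.5% of all RNAs), with a median log2 fold change of 0.10 and 0% of all RNAs called. DESeq2 called 2 rows lower, 13-qA3.1-355.1 and 8-qC5-2209.1, and without WT sperm replicate 4 edgeR called 8-qC5-2209.1. 13-qA3.1-355.1 was at 1.75, 25.7, 3.17 and 37.2 CPM in WT and 2.23, 1.53, 1.49 and 5.49 in KO (log2 fold change -2.77, SE 0.88, edgeR adjusted p = 0.182). 8-qC5-2209.1 was at 2.21, 14.0, 60.3 and 1.45 in WT and 3.51, 2.50, 2.45 and 2.40 in KO (log2 fold change -2.79, SE 0.94, edgeR adjusted p = 0.203). In both, some WT libraries were high and the others were at the level of KO. 15-qD1-17920.3 was at 10.3, 8.58, 6.87 and 5.42 CPM in WT and 18.4, 13.5, 14.6 and 19.6 in KO, without overlap (log2 fold change 1.06, SE 0.41, edgeR adjusted p = 0.217). WT sperm libraries 2 to 4 and KO library 4 were shallow, with 1134840 to 3618739 counts against 42764979 to 62128314 in the others.

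The most counted loci were partly shared. Row lengths are not given, so the order between loci mixes level and length. The means below pool all libraries of a table, and the order differed between groups. In tissue, 1-qE2.3-2.1 led with a mean of 8.41 CPM over 17 libraries, ahead of 7-qD2-40.1 (1.68), 10-qC1-2617.2 (1.16), 2-qE5-4.1 (1.11), 6-qF3-1063.1 (0.638) and 3-qA2-617.1 (0.495), and 2-qE1-35981.2, 18-qE1-36451.1, 5-qF-14224.2 and 9-qC-31469.1 closed the first 10. In caput tissue of WT mice, however, 10-qC1-2617.2 was at 1.34 to 1.51 CPM and 7-qD2-40.1 at 0.103 to 0.195. In fluid, 1-qE2.3-2.1 (40.8) was followed by 2-qE1-35981.2 (14.4), 18-qE1-36451.1 (10.5), 5-qG3-23659.2 (8.71), 6-qF3-28913.1 (8.60) and 9-qC-31469.1 (8.21), with 12-qE-23911.2, 9-qA5.3-24188.1, 15-qD1-17920.2 and 17-qA3.3-26735.1 after them. The KO corpus fluid libraries weigh heavily in these means, since 2-qE1-35981.2 was at 48.9, 8.10 and 84.1 CPM there and at 3.58 to 22.6 in the other fluid libraries. In sperm, 2-qE1-35981.2 led with 30.2 CPM over 8 libraries, ahead of 1-qE2.3-2.1 (22.2), 13-qA5-464.2 (21.8), 18-qE1-36451.1 (20.6) and 3-qA2-617.1 (19.3), and 9-qC-31469.1, 5-qG3-23659.2, 7-qD2-24830.3, 9-qA5.3-24188.1 and 6-qF3-28913.1 completed the 10. Of the first 10 loci by these pooled means, fluid and sperm shared 7, tissue and sperm 5, tissue and fluid 4, and 4 were in all 3 lists. 13-qA5-464.2 ran from 8.20 to 55.3 CPM and 3-qA2-617.1 from 5.06 to 50.2 among the sperm libraries, while 2-qE1-35981.2 ran from 17.7 to 40.5.

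The order of the loci in fluid was compared with that in WT sperm as a description. Over 75 loci tested in both tables (without 1-qE2.3-2), Spearman's rho between a fluid library and the mean of WT sperm was 0.64, 0.49 and 0.61 in KO corpus fluid, 0.53, 0.70 and 0.53 in WT corpus fluid, 0.70, 0.67 and 0.62 in WT cauda fluid and 0.48 to 0.72 in caput fluid. The KO corpus fluid libraries lay within the range of the others. Apart from Gm22710, the rows most like 1-qE2.3-2.1 in log2 CPM were Snord12-201 and Scarna10-201 in tissue (r = 0.92 and 0.88 over 17 libraries) and Gm23262-201 and tRNA-Glu-TTC-1-1 in fluid (0.93 and 0.92 over 18). The loci next in mean CPM in fluid, 2-qE1-35981.2 and 18-qE1-36451.1, were most like the genic piRNA row pi-1700006A11Rik.1 (0.88 and 0.92 over 18 libraries). This row was named after its values were seen, as the most alike. In sperm, 2-qE1-35981.2 was most like rmsk_5S_256, Gm25709-201 and rmsk_28S_570 (0.96, 0.95 and 0.95 over 8 libraries).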

How the data were processed

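The authors trimmed the reads with cutadapt and aligned them by bowtie2 against mm10, mature tRNAs and rRNAs. They counted them with a modified tRAX pipeline on tRNA fragments, rRNA rows, Ensembl genes and the piPipes piRNA set, and a read that matched several features was counted on each. The submitters' processing notes also name UMI-tools. The deposited values are raw read counts per RNA. Counts of each table were filtered with filterByExpr of edgeR 4.0.16 (minimum count 10, minimum total 15), scaled with TMM and fitted with all groups in 1 quasi-likelihood model in R 4.3.3. The Benjamini-Hochberg adjustment ran over every RNA tested in a table. A row was called at an adjusted p under 0.05 with a log2 fold change past 1 in size. Tests are 2-sided. Errors are SD or SE as stated, replicates are libraries, and p-values rest on a spread between libraries that all groups of a count table share. They do not measure the spread of a single group, such as KO corpus fluid, whose libraries differed more than those of WT corpus fluid.

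Per locus, the isoform with the most counts was named. In each comparison the called loci were named (at most 10 per direction, by p, and 3 in added comparisons), or the 3 with the smallest p where none was called, and the 10 most counted loci of each table. The members and lists were chosen with earlier results of these data known. Alternatives were other scalings, no filter, DESeq2 1.42.0, groups alone, 1 row per locus, a replicate block and leaving out each library. The model was tested on simulated data. Pairing was checked by correlating deviations of same-numbered libraries: in tissue the correlations were 0.18 to 0.63 between segments of a genotype and 0.27 to 0.60 between KO and WT cauda. Between KO and WT they were 0.03, 0.52 and 0.72 in caput and 0.15 and -0.03 in corpus tissue. Python 3.11.15 and matplotlib 3.10.9 were used for the other steps.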

Additional observations from a re-analysis of the deposited data

Results flagged for a closer look

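In KO sperm the germ cell and sperm miRNA list was lowest in 1 library, at 31.7 ppm, while the other 3 were at 42.7 to 44.5. 8-qC5-2209.1 was highest in 1 KO sperm library, at 3.51 CPM, while the others were at 2.40 to 2.50. Of 34 groups of values examined in this way, all from sperm, 2 had a library that stood apart, and chance gives about 1 in 20. Tissue and fluid libraries were not examined in this way.

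The KO effect differed between fluid segments, in comparisons chosen after seeing the data. It was larger in corpus than in caput fluid for 34 rows of 17 loci (1.83% of all RNAs called), with log2 differences of 5.40 at 14-qA3-19970.2, 4.82 at 17-qA3.3-27363.1 and 4.81 at 15-qD3-14639.3. It was larger in corpus than in cauda fluid for 40 rows of 21 loci (7.37% of all RNAs called), with 4.35 at 12-qE-23911.2, 4.26 at 18-qE1-36451.1 and 3.74 at 15-qD3-14639.3. Both counts were 0 with library size only as the scaling, and they ran from 0 to 55 and from 0 to 54 without single libraries.

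At some loci all KO libraries lay below all WT libraries in one place and above them in another, which was not tested. These were 8 loci lower in corpus tissue and higher in corpus fluid (10-qC1-1527, 15-qE1-1119, 17-qA3.3-27363, 6-qC3-2394, 6-qC3-6258, 8-qC5-8200, 9-qA5.3-1495 and 9-qC-10667), 7 lower in caput fluid and higher in corpus fluid (10-qC1-2617, 11-qE1-9443, 12-qE-7089, 14-qA3-19970, 15-qD3-14639, 9-qA5.3-1495 and 9-qC-31469), 2 lower in caput tissue and higher in corpus fluid (15-qD1-4001 and 9-qA5.3-1495), 2 lower in corpus tissue and higher in sperm (10-qC1-1527 and 8-qC5-8200), 1 lower in corpus tissue and higher in cauda fluid (6-qC3-2394) and 1 lower in cauda tissue and higher in corpus fluid (10-qC1-12816). Among all RNAs, every KO library was below every WT library in 15.2% in corpus tissue, 12.7% in caput fluid, 3.90% in caput tissue and 10.1% in cauda tissue, and above in 20.4% in corpus fluid, 6.03% in cauda fluid and 8.15% in sperm. KO corpus tissue had 2 libraries. By locus, all KO libraries lay above all WT libraries at 54 of the 76 loci tested in corpus fluid, 4 in cauda fluid and 9 in sperm. They lay below at 12 loci in corpus tissue, 7 in caput fluid, 4 in caput tissue and 2 in cauda tissue. Most loci tested were thus higher in corpus fluid, so loci of any other list often fall among them.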

How the results depend on the processing

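Counts of rows called in KO against WT corpus fluid were 44 with these groups alone (of 50 rows that passed the filter), 53 with 1 row per locus, 0 with KO replicate 2 as the only KO library and 58 to 123 without single libraries. With library size only the counts were 0 for WT cauda and WT corpus against WT caput fluid and for both differences of the KO effect between the corpus and another segment, 23 for KO cauda against KO caput fluid, 17 for KO cauda against KO caput tissue and 3 for WT corpus against WT caput tissue. With TMM without tRNA and rRNA rows they were 7 for WT cauda and 0 for WT corpus against caput fluid, 0 and 18 for the corpus effect minus that in caput and in cauda, and 3 for WT corpus against caput tissue, and this scaling moved the median of all RNAs in KO against WT corpus fluid to -0.71. With DESeq2 size factors they were 5 for WT cauda against caput fluid and 21 for the corpus effect minus that in caput. Without the filter they were 5 and 0 for WT cauda and WT corpus against caput fluid and 17 and 18 for the effects. With groups alone they were 9 for WT cauda against caput fluid, 17 for KO cauda against caput fluid, 77 for KO corpus against caput fluid, 0 for the corpus effect minus that in cauda, and in tissue 2 for WT corpus and 29 for KO cauda against caput. With 1 row per locus they were 20 and 53 for KO cauda and KO corpus against caput fluid, 3 and 9 for the effects, and 13 and 34 for WT and KO cauda against caput tissue. DESeq2 called 8 rows for WT cauda against caput fluid and 2 in sperm. With the replicate block 66 rows were called for WT cauda and 59 for WT corpus against caput tissue, 1 for KO against WT cauda tissue, and 7 for WT cauda against caput fluid. In that fluid comparison the correlations of same-numbered libraries were 0.108, 0.144 and 0.097, lower than between tissue segments. The block moved no other count by over 1.5 times. Leaving out single libraries gave 19 to 43, 2 to 34 and 30 to 44 for WT cauda, WT corpus and KO cauda against caput tissue, 0 to 4, 0 to 0, 1 to 76 and 66 to 123 for WT cauda, WT corpus, KO cauda and KO corpus against caput fluid, 0 to 55 and 0 to 54 for the effects and 0 to 1 in sperm. Where this left 1 KO corpus tissue library, it was assumed to vary like the other groups. Of 660 log2 fold changes of named loci under other settings 603 stayed on their side of the threshold and 0 reversed, and of 570 without single libraries 455 and 0. The causes were not tested. Counts per locus were low in tissue and in WT corpus fluid, where all loci together (1 row per locus) had 570 to 885 counts in a library.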
